A study of Mus musculus with 6 samples.

Results

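A set of 55 genes was close to silent in the epididymal fat of fed mice and was read at low to moderate levels after a fast. The set was chosen by its values: a mean below 1 FPKM over the fed libraries and of at least 2 FPKM over the fasted libraries, leaving out symbols that start with Zfp, Zscan, Zkscan, Zbtb, Slc or Cyp. FPKM, the deposited unit, scales the fragments of a gene by its transcript length and by the total mapped, so that levels can be set side by side between genes per length. Of the 3162 genes held, 57 met both limits and 2 of those carried a left-out prefix, Slc26a10 and Slc25a34. The mice were male wild-type C57BL/6J animals aged 16 weeks. Epididymal white adipose tissue, the visceral depot beside the epididymis, was taken from 3 mice starved for 24 h and from 3 mice fed normally, and bulk RNA was sequenced. Values are listed below for replicates 1, 2 and 3 of each group, and these numbers pair no mice.

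White fat stores triglyceride when food is present. In a fast, insulin falls while glucocorticoids and sympathetic noradrenaline rise, and adipocytes then release fatty acids through cAMP signalling, with nuclear receptors and FOXO factors changing transcription. The depot also holds blood and lymphatic vessels, fibroblasts, nerve fibres, resident leukocytes and a mesothelial surface, and in mice visceral fat can enclose small lymph nodes or lymphoid clusters. A bulk measurement adds these sources together, so that more cells of a type and more RNA per cell cannot be told apart in any value given here.

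Because the rule used this same contrast, the fasted and fed levels of the 55 genes are a description with no test. Their fasted means lay between 2.01 and 16.3 FPKM, with a median of 2.79 FPKM, and their fed means between 0.0133 and 0.98 FPKM, with a median of 0.73 FPKM. The ratio of fasted to fed mean had a median of 4.31 and its lowest value was 2.28, for Gpr65. On the log2(FPKM + 1) scale, which understates change at low levels, the differences ran from 0.69 to 3.27 with a median of 1.13. Most of the genes stayed low after the fast as well: 32 had a fasted mean below 3 FPKM and 5 reached 6 FPKM, namely Cytl1, Rassf6, E030018B13Rik, Ccl19 and Asphd1. All 55 are annotated as protein coding, and they lie on 19 chromosomes.

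**Figure D1:**
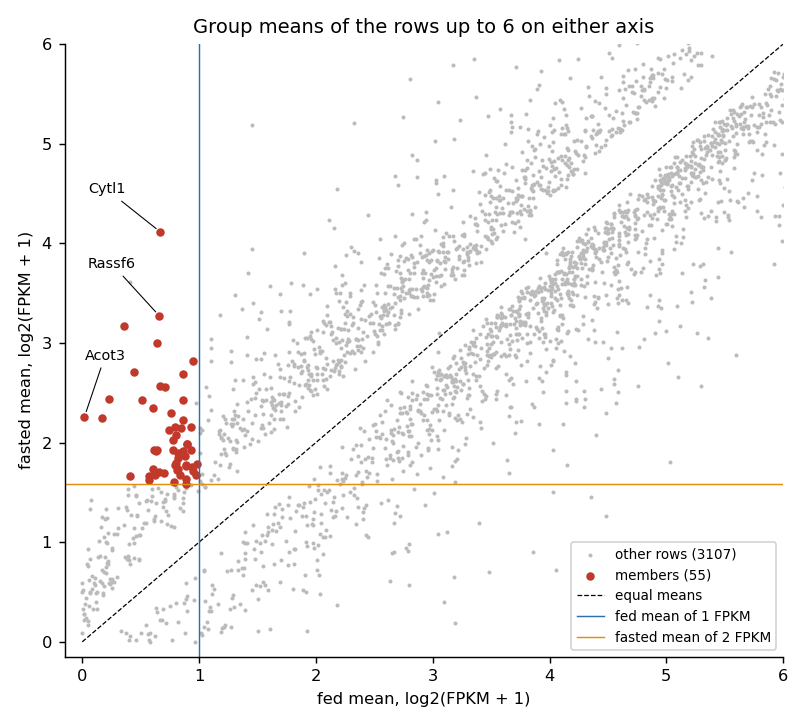
Mean FPKM in fasted tissue (vertical axis) against mean FPKM in fed tissue (horizontal axis), both as log2(FPKM + 1), for rows up to 6 on each axis, with 1 point per row and the 2 limits drawn as lines. The 55 members (red) fill the upper left corner and most lie just above the fasted limit, while Cytl1 and Rassf6 stand highest and Acot3 lies at the left edge. The 2 grey points in the same corner are Slc26a10 and Slc25a34.

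The limits cut a continuous range. Just inside the fed limit were Myom1, with means of 2.45 FPKM fasted and 0.98 FPKM fed, Gpr65 with 2.19 and 0.96 FPKM, and Asphd1 with 6.04 and 0.927 FPKM. Close outside it were Armcx4, with means of 3.28 FPKM fasted and 1.007 FPKM fed, and Cacna1c with 2.07 and 1.01 FPKM. At the fasted limit, Id4, Prickle2 and Dhh lay inside with fasted means of 2.01, 2.03 and 2.08 FPKM, whereas Sytl2, Olfr1420 and Ncapg2 lay outside with 1.97, 1.95 and 1.93 FPKM.

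Some facts of the libraries bear on every value. The genes held had been selected, by a rule not stated in the sources used here, and nearly all differ between the groups: by limma with Benjamini-Hochberg adjustment, 90.5% of the 2999 genes tested passed, 41.1% higher and 49.4% lower in fasted tissue. With median-ratio scaling the counts were 1240 higher and 787 lower, against 1232 and 1482 as deposited. The median log2 change over all tested genes was -0.34 as deposited, -0.15 with median-ratio scaling and -0.21 with quantile scaling. Median-ratio scaling divides by factors of 0.911 to 0.953 in the fasted libraries and 1.03 to 1.14 in the fed libraries. It thus raises fasted values and lowers fed values, so no member could change sign or be lost by it. Every fasted library exceeded every fed library in 53 of the 55 members (96.4%), where the share was 41.9% over all 3162 rows and 40.8% over the genes tested. Nothing is read from that count, since the rule set the direction and the count among the other genes with a higher fasted mean, called other risers below, was 1273 of 1290 (98.7%). Among the members the exceptions were Asphd1 and Ackr2. The depth of each library is unknown, since FPKM with 2 decimals does not keep it. Because the genes held had been selected, the adjusted p-values below hold within them only. Listed genes that were not held count in neither direction.

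The adipocyte identity of the tissue was visible in the markers held. Plin1, which coats the lipid droplet, averaged 341 ± 120 FPKM in fasted tissue and 741 ± 52.5 FPKM in fed tissue (SD, n = 3 each). The 5 adipocyte markers held of 14 listed (Plin1, Lep, Retn, Slc2a4 and Aoc3) were all lower in fasted tissue by limma, where 49.4% of all tested genes were lower. Retn did not pass with median-ratio or quantile scaling (highest limma adjusted p = 0.0756).

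**Figure D2:**
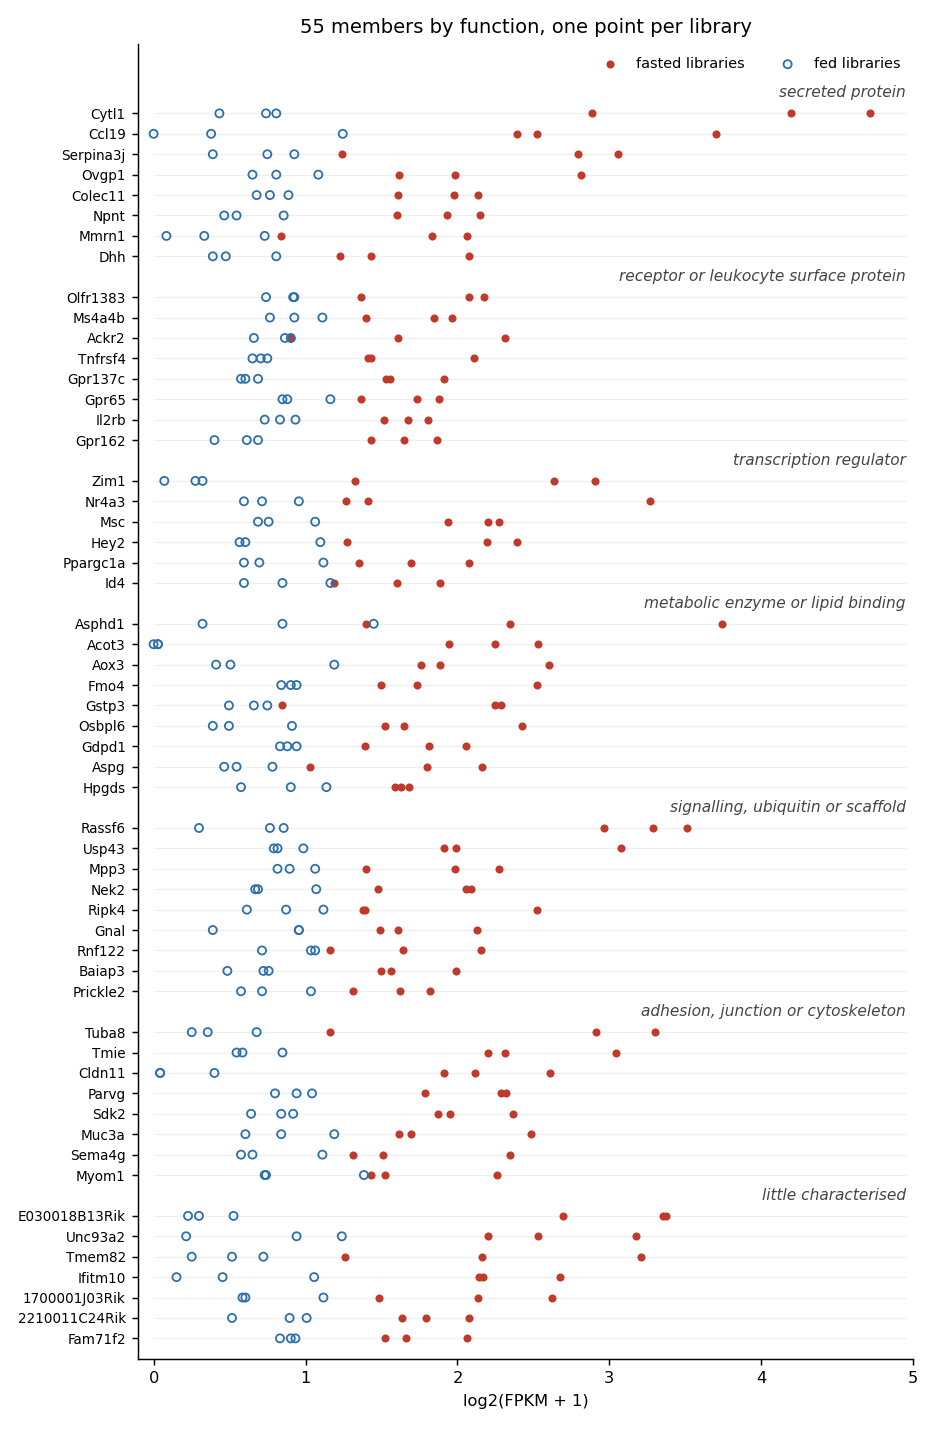
Level of each of the 55 members in each library, as log2(FPKM + 1), grouped by function, with filled red points for the 3 fasted libraries and open blue points for the 3 fed libraries. The groups overlap only for Asphd1 and Ackr2, and the fasted points of many members are spread widely, with Nr4a3 and Tuba8 as examples.

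Of the secreted proteins, Cytl1 had the highest fasted mean of all 55 members. Cytl1 encodes cytokine-like 1, a small secreted protein known from cartilage cells and from CD34+ blood progenitors. It was read at 6.38, 25.2 and 17.3 FPKM in fasted tissue and at 0.75, 0.67 and 0.35 FPKM in fed tissue, a mean of 16.3 ± 9.46 against 0.59 ± 0.212 FPKM (SD, n = 3 each) and a ratio of 27.6. All 3 fasted mice stood far above all fed mice, yet the fasted mice differed among themselves by more than any fed level. The gene lies at chr5:37735519-37739820 on the plus strand (GRCm38), and the 250 bases before its start are shown because it leads the set. None of the response elements searched for below was found in them.
Cytl1 upstream (chr5:37735269-37735518, plus strand, RefSeq GRCm38.p6): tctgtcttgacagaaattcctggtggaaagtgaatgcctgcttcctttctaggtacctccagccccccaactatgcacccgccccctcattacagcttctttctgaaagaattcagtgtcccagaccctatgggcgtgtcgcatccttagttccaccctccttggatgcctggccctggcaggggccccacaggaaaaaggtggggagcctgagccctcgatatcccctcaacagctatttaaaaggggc

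Ccl19, a chemokine that guides T cells and dendritic cells through the receptor Ccr7 and is made by lymphoid stroma, had 4.74, 12.0 and 4.25 FPKM in fasted tissue against 1.37, 0.00 and 0.30 FPKM in fed tissue. Fasted mouse 2 held 57.1% of its fasted sum. Serpina3j, of the expanded mouse family of Serpina3 protease inhibitors, had 5.93, 7.32 and 1.36 FPKM fasted and 0.90, 0.31 and 0.68 FPKM fed. Ovgp1, a glycoprotein known from oviduct epithelium, had 6.04, 2.96 and 2.06 FPKM fasted and 1.12, 0.57 and 0.75 FPKM fed. Ovgp1 was the only secreted member that did not peak in fasted mouse 2. Mmrn1, multimerin 1, a protein of platelets and of vascular and lymphatic endothelium, had 0.79, 3.18 and 2.56 FPKM fasted and 0.66, 0.06 and 0.26 FPKM fed. Its groups were separated by only a small gap, since fasted mouse 1 lay close to fed mouse 1. Dhh, the desert hedgehog ligand known from Sertoli and Schwann cells, had 1.70, 3.21 and 1.34 FPKM fasted and 0.75, 0.31 and 0.39 FPKM fed. The remaining secreted members, the collectin Colec11 of the lectin pathway of complement and the matrix protein nephronectin (Npnt), a ligand of an integrin, were steadier, with fasted means of 2.79 ± 0.681 and 2.76 ± 0.697 FPKM and fed means of 0.717 ± 0.126 and 0.55 ± 0.229 FPKM (SD, n = 3 each). Summed over the 8 secreted proteins the level was 31.3, 60.7 and 33.0 FPKM in fasted tissue and 7.21, 2.98 and 3.81 FPKM in fed tissue, and 7 of the 8 were highest in fasted mouse 2.

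The 8 receptors and leukocyte surface proteins were low throughout, with fasted means of 2.16 to 2.77 FPKM and ratios of 2.28 to 4.45. Ackr2, an atypical receptor of lymphatic endothelium that takes up inflammatory CC chemokines, had 0.87, 3.97 and 2.05 FPKM fasted and 0.82, 0.87 and 0.58 FPKM fed. Fasted mouse 1 did not exceed the highest fed mouse in this gene. Il2rb, the beta chain of the receptors for interleukins 2 and 15 on T and NK cells, had 1.86, 2.19 and 2.50 FPKM fasted and 0.91, 0.78 and 0.66 FPKM fed, and was among the steadiest members. Gpr65, a proton-sensing receptor of leukocytes, had 1.58, 2.67 and 2.33 FPKM fasted and 1.24, 0.84 and 0.80 FPKM fed. Tnfrsf4 (OX40), a costimulatory receptor of T cells, had 3.32, 1.70 and 1.66 FPKM fasted and 0.63, 0.68 and 0.57 FPKM fed. For both receptors the fasted and fed ranges were apart, but the gap was small for Gpr65. The gap was wider than that of Gpr65 for the orphan receptors Gpr162 and Gpr137c. Gpr162 had 2.65, 2.14 and 1.70 FPKM fasted and 0.61, 0.53 and 0.32 FPKM fed. Gpr137c had 1.94, 2.77 and 1.89 FPKM fasted and 0.61, 0.52 and 0.49 FPKM fed. Ms4a4b, a membrane protein of T cells, and the olfactory receptor gene Olfr1383 had fasted means of 2.38 and 2.77 FPKM and fed means of 0.92 and 0.82 FPKM. Of the 18 other genes of the G protein-coupled receptor families held and tested, 10 were higher and 6 lower in fasted tissue (limma), beside shares of 41.1% higher and 49.4% lower over all genes tested. With median-ratio scaling 3 of these receptors were lower.

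Among the 6 transcription regulators, Nr4a3 had the highest coefficient of variation over the fasted mice of all 55 members, at 105%. Nr4a3 encodes an orphan nuclear receptor that is transcribed quickly after cAMP signals, and it had 1.66, 8.63 and 1.41 FPKM in fasted tissue against 0.64, 0.51 and 0.94 FPKM in fed tissue. Fasted mouse 2 held 73.8% of the fasted sum, and without that mouse Nr4a3 fell below the fasted limit. Ppargc1a, the coactivator PGC-1alpha of mitochondrial and fasting programmes, had 3.21, 2.24 and 1.55 FPKM fasted and 1.17, 0.62 and 0.51 FPKM fed, so its peak lay in another mouse than that of Nr4a3. Zim1, an imprinted zinc finger gene expressed from the maternal allele, had 6.48, 5.21 and 1.51 FPKM fasted and 0.25, 0.05 and 0.21 FPKM fed, a ratio of 25.9. Hey2, a Notch-responsive repressor of vessel walls, had 3.58, 4.25 and 1.42 FPKM fasted and 1.14, 0.52 and 0.48 FPKM fed. Every fasted level of these regulators exceeded every fed level, as in 53 of the 55 members, and nothing is read from this. Musculin (Msc), a repressor of the basic helix-loop-helix family, averaged 3.42 ± 0.526 FPKM fasted and 0.797 ± 0.257 FPKM fed, and Id4, which blocks such factors, averaged 2.01 ± 0.711 FPKM fasted and 0.85 ± 0.368 FPKM fed (SD, n = 3 each).

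Of the known cAMP-responsive genes outside the set, 7 were held and 5 tested. By limma 3 of the 5 were higher (Per1, Sik1 and Pde4d) and 2 lower (Fos and Atf3) in fasted tissue. Over all genes tested, 41.1% were higher and 49.4% lower. Fosb and Dio2 averaged below 1 FPKM over the 6 libraries and were not tested, and both had lower fasted means. Fosb had 0.32, 0.56 and 0.27 FPKM fasted and 1.59, 1.20 and 1.53 FPKM fed. Dio2 had 0.07, 0.05 and 0.05 FPKM fasted and 0.14, 1.25 and 0.03 FPKM fed. Pde4d, which degrades cAMP, changed by 1.82 ± 0.42 on the log2 scale (SE, adjusted p = 0.0071). Fos, an immediate-early gene, changed by -0.63 ± 0.18 (SE, adjusted p = 0.0147) and did not pass with median-ratio scaling (adjusted p = 0.0591).

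The Nr4a3 promoter is shown because its 250 upstream bases hold the short cAMP element TGACGT 3 times. The 98 bases printed are those of this window that lie before the annotated start of the gene. They are the part farthest from the RefSeq start, and the copies that lie in them are in capitals.
Nr4a3 upstream (chr4:48045055-48045152, plus strand, RefSeq GRCm38.p6): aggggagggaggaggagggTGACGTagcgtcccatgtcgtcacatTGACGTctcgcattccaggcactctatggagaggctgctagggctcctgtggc

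Acot3 came closest to an on-off pattern among the 9 metabolic and lipid-binding members. Acot3, a peroxisomal thioesterase that splits acyl-CoA and is a known PPARalpha target in liver, had 3.75, 4.77 and 2.84 FPKM in fasted tissue against 0.02, 0.02 and 0.00 FPKM in fed tissue. The fed values lie at the rounding step of the files, so no fold change is read from them. Of the 10 other tested genes on a list of PPARalpha and FOXO targets, 8 were higher, 1 lower (Angptl4) and 1 not called (Cpt1a) in fasted tissue by limma, where 41.1% of all tested genes were higher. Its neighbour Acot4 was also higher, as given below. No member was on the list of glucocorticoid-responsive genes, of which 7 of the 8 held were higher and 1 lower, again Angptl4. Angptl4 did not pass with median-ratio scaling or without fasted mouse 2 or 3 or any 1 fed mouse, and the highest adjusted p over the alternatives was 0.475.

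Asphd1, a member of the aspartate beta-hydroxylase family, had 4.09, 12.4 and 1.63 FPKM fasted and 1.73, 0.25 and 0.80 FPKM fed. The groups overlapped, as fasted mouse 3 lay below fed mouse 1. Aox3, a liver aldehyde oxidase, had 2.70, 5.06 and 2.38 FPKM fasted and 1.28, 0.33 and 0.42 FPKM fed. Fmo4, a flavin monooxygenase, had 4.76, 2.33 and 1.82 FPKM fasted and 0.92, 0.79 and 0.87 FPKM fed, and the oxysterol-binding protein gene Osbpl6 had 4.36, 1.88 and 2.14 FPKM fasted and 0.88, 0.31 and 0.41 FPKM fed. For both genes fasted mouse 1 held over 50% of the fasted sum. Hpgds, the synthase that makes prostaglandin D2 in leukocytes, was the most even member after the fast, with 2.20, 2.01 and 2.09 FPKM fasted and 1.20, 0.87 and 0.49 FPKM fed. The glutathione transferase Gstp3, the asparaginase Aspg and the lysophospholipase D gene Gdpd1 completed the group, with fasted means of 2.80, 2.33 and 2.43 FPKM and fed means of 0.557, 0.52 and 0.847 FPKM.

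In the group of signalling, ubiquitin and scaffold proteins, Rassf6 had the highest ratio and the lowest coefficient of variation among fasted mice. That variation was close to the median of 19.0% in other risers with fasted means in the range of the members. Rassf6, a Ras-association protein linked to apoptosis and Hippo signalling, had 8.75, 6.82 and 10.4 FPKM fasted and 0.81, 0.23 and 0.70 FPKM fed, a ratio of 14.9 and a coefficient of variation of 20.7% among fasted mice. Usp43, a deubiquitinating enzyme, had 7.43, 2.97 and 2.76 FPKM fasted and 0.98, 0.76 and 0.73 FPKM fed. Ripk4, a kinase of keratinocyte differentiation, had 1.62, 4.74 and 1.60 FPKM fasted and 0.83, 0.53 and 1.17 FPKM fed. Unlike in Rassf6, 1 fasted mouse held over 50% of the fasted sum of both, mouse 1 for Usp43 and mouse 2 for Ripk4. Without that mouse Ripk4 fell below the fasted limit, whereas Usp43 still met the rule. Rnf122, a ubiquitin ligase, had 3.46, 1.24 and 2.12 FPKM fasted and 1.05, 1.09 and 0.64 FPKM fed, with fasted mouse 2 close to the fed mice. The scaffold Mpp3, the centrosomal kinase Nek2, the G protein subunit Gnal of olfactory neurons, the exocytosis factor Baiap3 and the planar polarity protein Prickle2 had fasted means between 2.03 and 2.81 FPKM, and their ratios were 3.11, 3.56, 3.31, 3.89 and 2.79.

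The Rassf6 promoter is shown because it was the only one of the 43 matched that held the FOXO element TGTTTAC. It lies on the opposite strand as GTAAACA, in capitals. The 120 bases printed are those of the 250 that lie before the annotated start of the gene, the part farthest from the RefSeq start.
Rassf6 upstream (chr5:90640658-90640777, minus strand, RefSeq GRCm38.p6): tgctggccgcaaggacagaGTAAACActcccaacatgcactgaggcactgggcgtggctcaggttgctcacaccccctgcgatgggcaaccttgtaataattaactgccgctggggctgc

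Of the 8 adhesion, junction and cytoskeletal members, Cldn11 had the lowest fed mean. Cldn11, the tight-junction claudin of myelin and of the Sertoli cell barrier, had 3.33, 5.10 and 2.77 FPKM fasted and 0.32, 0.03 and 0.03 FPKM fed. No fold change is read from it, since 2 of the fed values lie near the rounding step. Tuba8, an alpha-tubulin, had 6.54, 8.84 and 1.24 FPKM fasted and 0.60, 0.28 and 0.19 FPKM fed, so that fasted mouse 3 was only a little above the fed mice. Tmie, needed for mechanotransduction in inner-ear hair cells, had 7.23, 3.59 and 3.96 FPKM fasted and 0.80, 0.46 and 0.50 FPKM fed. These levels were apart from all fed levels in each fasted mouse. Muc3a, a membrane mucin of gut epithelium, had 4.60, 2.07 and 2.24 FPKM fasted and 1.28, 0.79 and 0.52 FPKM fed. Sema4g, a transmembrane semaphorin, had 4.08, 1.48 and 1.85 FPKM fasted and 1.16, 0.57 and 0.49 FPKM fed, and Myom1, the myomesin of the muscle M-band, had 3.78, 1.87 and 1.70 FPKM fasted and 1.61, 0.67 and 0.66 FPKM fed. In these 3 genes fasted mouse 1 and fed mouse 1 were the highest of their groups. Parvg, the leukocyte parvin, and the cell adhesion protein Sdk2 were steadier, with fasted means of 3.44 ± 0.862 and 3.23 ± 0.812 FPKM and fed means of 0.907 ± 0.16 and 0.747 ± 0.169 FPKM (SD, n = 3 each).

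Tuba8 is shown as 1 of the 2 members whose upstream bases hold the E-box CACGTG, in capitals, to which clock and other basic helix-loop-helix factors bind. The other was Tnfrsf4.
Tuba8 upstream (chr6:121210484-121210695, plus strand, RefSeq GRCm38.p6): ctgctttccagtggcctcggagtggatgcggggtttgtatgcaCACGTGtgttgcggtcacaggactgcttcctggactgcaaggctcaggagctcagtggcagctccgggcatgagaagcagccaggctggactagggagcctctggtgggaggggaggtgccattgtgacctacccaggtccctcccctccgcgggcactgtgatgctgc

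The last 7 members have little or no known function. E030018B13Rik had 9.38, 9.23 and 5.46 FPKM fasted and 0.44, 0.23 and 0.17 FPKM fed, a ratio of 28.7. Unc93a2 had 3.60, 4.78 and 8.02 FPKM fasted and 0.92, 0.16 and 1.36 FPKM fed. Tmem82 had 3.47, 8.24 and 1.39 FPKM fasted and 0.65, 0.19 and 0.43 FPKM fed. No peak was shared by these genes, which were highest in fasted mice 1, 3 and 2. Ifitm10 had 3.49, 5.38 and 3.42 FPKM fasted and 1.08, 0.11 and 0.37 FPKM fed. The fasted means of 1700001J03Rik, 2210011C24Rik and Fam71f2 were 3.45, 2.60 and 2.41 FPKM, and their fed means were 0.73, 0.767 and 0.853 FPKM.

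**Figure D3:**
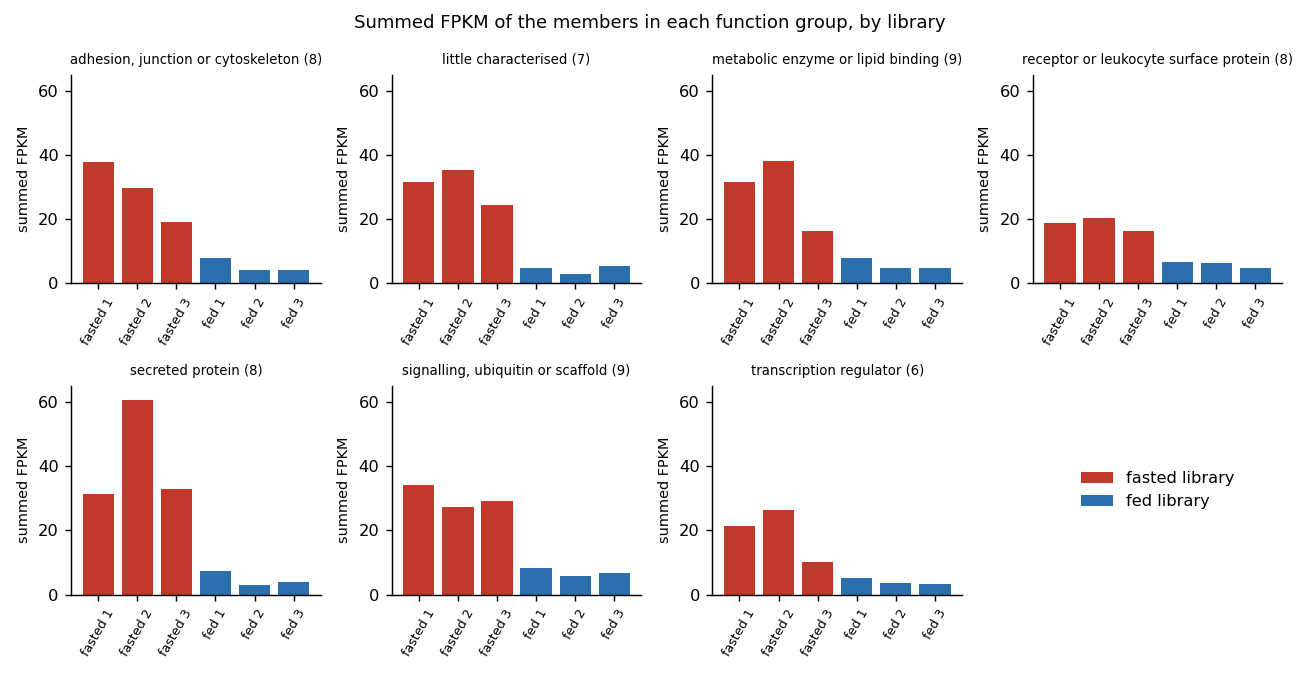
Summed FPKM of the members in each function group, with 1 bar per library (red for fasted, blue for fed) and axes that start at 0. The secreted proteins reach 60.7 FPKM in fasted mouse 2, while the receptors stay between 16.3 and 20.3 FPKM in fasted mice, and fed mouse 1 has the highest fed bar in all groups but the little characterised one.

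The fasted mice did not contribute evenly. Summed over all 55 members, the level was 206, 237 and 148 FPKM in fasted mice 1, 2 and 3 and 47.6, 30.3 and 32.8 FPKM in fed mice. Fasted mouse 1 was highest in 26 members, fasted mouse 2 in 25 and fasted mouse 3 in 4, and fasted mouse 3 was lowest in 35. The other 1290 risers also peaked seldom in fasted mouse 3 (6.74%), while fasted mouse 2 was highest in 31.1% of them and in 45.5% of the members. In 18 of the 55 members (32.7%) 1 fasted mouse held over 50% of the fasted sum, against 28 of 539 other risers with fasted means in the same range (5.19%). The coefficient of variation among fasted mice had a median of 40.7% in the members and 19.0% in those risers. Within fasted means of 2 to below 4 FPKM the medians were 35.6% over 42 members and 22.8% over 75 other risers. The rule used the mean of the fasted mice, so 1 high mouse could bring a row into the set. The wider spread therefore cannot be read as a trait of the members. These shares describe 3 mice and carry no test.

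**Figure D4:**
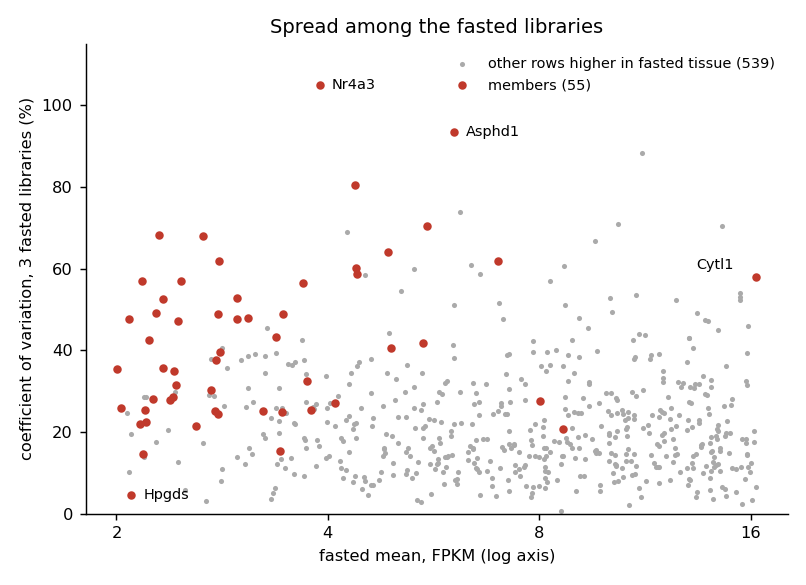
Coefficient of variation among the 3 fasted libraries (vertical axis, percent) against the fasted mean (horizontal log axis, FPKM) for the 55 members (red) and the 539 other rows that were higher in fasted tissue within the same range (grey). Many members lie above most grey points of the same level, with Nr4a3 at 105% and Hpgds at 4.54% as the extremes.

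The fed mice were uneven as well. Fed mouse 1 was the highest fed mouse in 40 of the 55 members (72.7%) and in 52.1% of the other risers. In 31 members every fed mouse was below 1 FPKM, and in 20 every fasted mouse reached 2 FPKM. Both held in 10 members. Fed mouse 1 also had the highest fed levels of the lymphatic markers held and the highest fed sum of mural markers. The 6 mural markers held of 9 summed to 206, 186 and 114 FPKM in fasted mice. In fed mice 1, 2 and 3 they summed to 97.6, 49.3 and 62.5 FPKM. Cspg4 alone among them was lowest in fed mouse 1, at 3.24, 9.79 and 5.15 FPKM in fed mice. The 4 blood endothelial markers held summed highest in fed mouse 2, at 196, 217 and 176 FPKM in fed mice. The part of all these markers in the members' levels was not tested.

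By the cell type in which each gene is best known, an assignment made from general knowledge after the values were seen, 25 of the 55 members fell into 6 sources and 30 were given none. The 3 members known from lymphatic vessels or lymphoid stroma, Ccl19, Ackr2 and Mmrn1, summed to 6.40, 19.1 and 8.86 FPKM in fasted mice and 2.85, 0.93 and 1.14 FPKM in fed mice. All 3 peaked in fasted mouse 2, and fed mouse 1 was the highest fed mouse for Ccl19 and Mmrn1. Of 7 lymphatic markers listed, 3 were held: Mmrn1 itself, Ccl21a and Reln. Ccl21a, another ligand of Ccr7, had 34.0, 68.2 and 67.8 FPKM fasted and 19.1, 1.98 and 6.58 FPKM fed, and Reln had 0.31, 0.71 and 0.49 FPKM fasted and 0.11, 0.04 and 0.06 FPKM fed. In all 3 lymphatic markers fasted mouse 1 was the lowest of the fasted mice and fed mouse 1 the highest of the fed mice. The other markers listed, Prox1, Lyve1, Pdpn and Flt4, were not among the genes held, so their change is unknown. The 4 blood endothelial markers held of 10, Pecam1, Tek, Egfl7 and Emcn, were all higher in fasted tissue by limma, where 41.1% of all tested genes were higher. They summed to 414, 370 and 283 FPKM in fasted mice and 196, 217 and 176 FPKM in fed mice. The part of vessel RNA in these members' levels was not tested. Of 12 adipose progenitor and fibroblast markers 4 were held, with 3 higher (Dcn, Pdgfrb and Ly6a) and 1 lower (Col1a1) by limma. Col1a1 did not pass with median-ratio or quantile scaling or with no trend. Nor did it pass without any 1 fasted mouse or without fed mouse 2 or 3 (highest limma adjusted p = 0.272). The part of fibroblast RNA in the members' levels was not tested.

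The 6 members known from leukocytes, Parvg, Ms4a4b, Tnfrsf4, Gpr65, Il2rb and Hpgds, summed to 15.8, 14.2 and 13.6 FPKM in fasted mice and 5.94, 5.07 and 4.14 FPKM in fed mice, the most even of the sources among the fasted mice. Of 11 T and NK cell markers 1 was held, Cd3e, the T cell receptor chain, at 0.90, 0.89 and 0.98 FPKM fasted and 0.15, 0.20 and 0.23 FPKM fed. Cd3e missed the mean filter and was not tested, and its groups did not overlap. Of 10 macrophage markers the integrin gene Itgam alone was held, and it was lower, with a log2 change of -1.03 ± 0.25 (SE, limma adjusted p = 0.0087). Of 8 neutrophil markers 2 were held, Elane higher and S100a8 lower by limma, and of 7 dendritic cell markers Zbtb46 alone was held, and it was higher. No B cell, plasma cell or mast cell marker was held. Whether the leukocyte members came from T cells, and in what part, was not tested. In the wider chemokine and cytokine list, 4 of the 7 other genes tested were higher (Ccl21a, Ccl5, Cxcl12 and Ccl11) and 3 lower (Ccl2, Ccl7 and Csf1) in fasted tissue. Over all genes tested, 41.1% were higher and 49.4% lower. Ccl5, a T and NK cell chemokine, changed by 1.35 ± 0.21 and the monocyte attractant Ccl2 by -1.41 ± 0.24 on the log2 scale (SE, limma adjusted p = 0.0024 and 0.0029).

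Cldn11, Tmie, Sdk2, Gnal, Baiap3, Dhh and Prickle2 are best known from nerve, glia or sensory cells, and they summed to 23.7, 19.9 and 18.4 FPKM in fasted mice and 5.40, 2.71 and 3.83 FPKM in fed mice. The neuronal marker held of 10, Snap25, was at 0.99, 0.91 and 0.51 FPKM fasted and 0.26, 0.00 and 0.03 FPKM fed, and no Schwann cell or glial marker was held. Acot3, Aox3, Fmo4 and Colec11 are known from liver and summed to 14.1, 15.6 and 9.09 FPKM fasted and 3.07, 1.74 and 1.99 FPKM fed. Of the 4 hepatocyte markers held of 8, 2 were higher (Apoc3 and Apoa1) and 2 lower (Alb and Serpina1a) in fasted tissue by limma. Over all genes tested, 41.1% were higher and 49.4% lower. Alb, the defining secreted protein of liver, was at 2.28, 3.65 and 4.34 FPKM fasted and 4.47, 12.6 and 11.9 FPKM fed, and its call did not hold without fasted mouse 1, fed mouse 2 or fed mouse 3 (highest adjusted p = 0.0592). Ovgp1, Muc3a and Ripk4 are known from epithelium, and the epididymal marker held, Adam7, was at 0.00, 0.03 and 0.00 FPKM fasted and 0.03, 2.05 and 0.02 FPKM fed. Hey2 and Myom1 are known from vessel wall and muscle. The skeletal muscle marker Myl1 was lower in fasted tissue, with a log2 change of -1.71 ± 0.25 (SE, limma adjusted p = 0.00196). In contrast, 5 of the 6 mural markers (Actg2, Cnn1, Tagln, Myh11 and Des) were higher, where 41.1% of all tested genes were higher. Myh11 did not pass without fasted mouse 1, fed mouse 2 or fed mouse 3 (highest adjusted p = 0.0661). The sixth mural marker, Cspg4, was lower, and it did not pass with median-ratio scaling or without fasted mouse 2 or 3 or fed mouse 2 or 3 (highest adjusted p = 0.0938). The 5 red cell markers held of 6 summed to 7204, 3955 and 10136 FPKM fasted and 1892, 2800 and 2558 FPKM fed, and their part in the members' levels was not tested.

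Position in the genome was not used by the rule. Within 30 kb of 19 members lay 22 other genes held, 17 of them on the same strand. Of the 21 tested, 17 (81.0%) were higher in fasted tissue, 3 lower (Ctsd, Prkaca and Usp5) and 1 not called (Atp5f1, limma adjusted p = 0.0506). Over all tested genes, 41.1% were higher. The 17 include Slc25a34, which met both FPKM limits of the rule, so its direction was fixed by them. Besides Aox1, described below, Ctsd and the higher neighbour Tti2 did not pass under every alternative (highest adjusted p = 0.0532 for Ctsd and 0.0514 for Tti2). Among the other risers, 274 of 517 such pairs (53.0%) held a neighbour that was higher. Pairs of one locus are not independent, and no test is given. The neighbours named here were chosen after their values were seen.

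Slc25a34, a mitochondrial carrier gene, ends 190 bases before the start of Tmem82 on the same strand. It had 7.11, 22.5 and 3.99 FPKM in fasted tissue and 0.36, 0.11 and 0.52 FPKM in fed tissue. Slc25a34 met both FPKM limits of the rule, so its log2 difference of 2.90 is given with no test. The order of the fasted mice was that of Tmem82. Peg3 is the paternally expressed zinc finger gene 7441 bases from the maternally expressed Zim1. It had 194, 124 and 78.3 FPKM fasted and 18.3, 6.13 and 16.0 FPKM fed, a log2 change of 3.23 ± 0.43 (SE, limma adjusted p = 0.0014). Both imprinted neighbours had the same order of mice in both groups. Ccl21a, 16282 bases from Ccl19, changed by 2.84 ± 0.63 (SE, adjusted p = 0.0065), and Acot4, 3542 bases from Acot3, by 1.86 ± 0.20 (SE, adjusted p = 0.000904). Mpp2 beside Mpp3 changed by 1.35 ± 0.19 and Parvb beside Parvg by 0.72 ± 0.15 (SE, adjusted p = 0.0016 and 0.0060), each being a paralog of its member. Aox1, the paralog beside Aox3, changed by 0.79 ± 0.23 (SE, adjusted p = 0.0145) and did not pass without fasted mouse 1 (adjusted p = 0.0501).

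**Figure D5:**
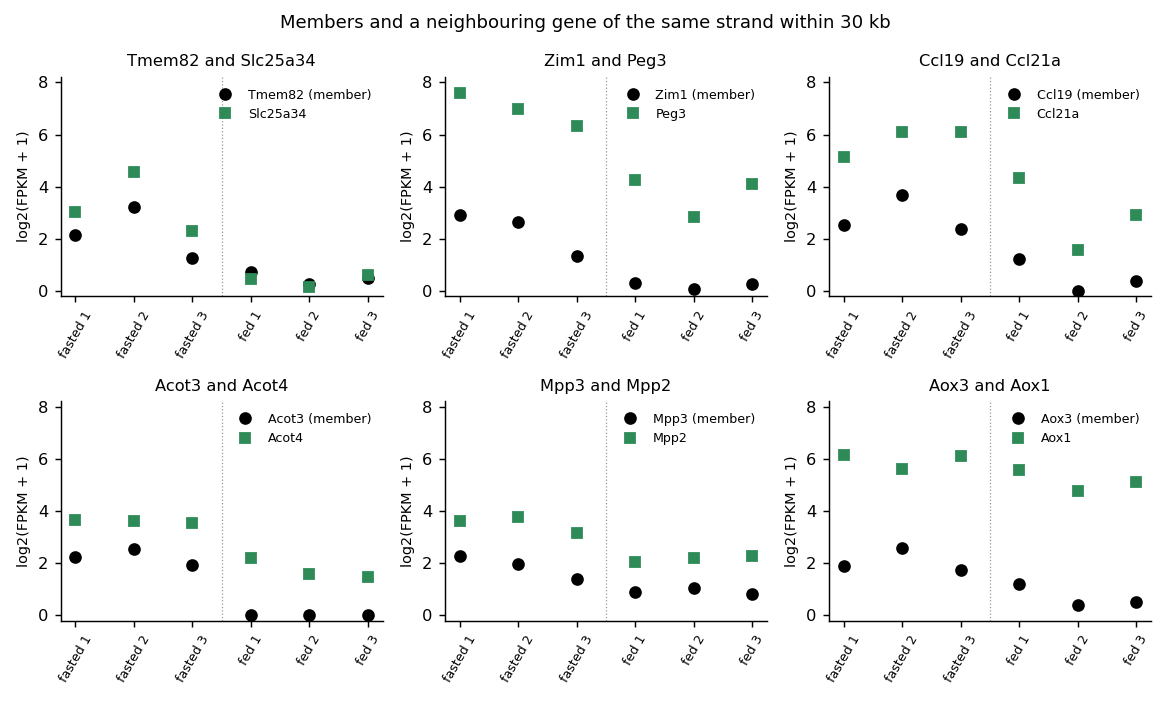
Levels as log2(FPKM + 1) of 6 members (black circles) and a neighbour on the same strand within 30 kb (green squares) in the 3 fasted libraries, left of the dotted line, and the 3 fed libraries, right of it. Each neighbour is higher in fasted than in fed mice on average, and Slc25a34 and Peg3 keep the order of the fasted mice seen in Tmem82 and Zim1.

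Reads of overlapping or near-identical genes may have been shared. In the GRCm38 annotation 19 members share exon bases with another gene, and 15 of these share them with a gene on the other strand. No source used here says whether strand was used in counting, so reads of such pairs may be mixed. Tmie shares 244 exon bases with Als2cl on the other strand, which was higher in fasted tissue as well, with a log2 change of 1.39 ± 0.23 (SE, limma adjusted p = 0.0028) and 33.7 ± 12.5 FPKM fasted against 11.8 ± 0.841 FPKM fed (SD, n = 3 each). Fasted mouse 1 was highest in both genes. Acot3, Serpina3j, Gstp3, Ccl19, Ms4a4b, Unc93a2, Muc3a and Olfr1383, and the neighbour Ccl21a, belong to families with close copies, and their levels are uncertain to that extent.

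Promoter sequence gave little that the members shared. RefSeq upstream bases were matched for 43 of the 55 members. In the 250 bases before the start, on both strands, none of the 43 held the glucocorticoid element (AGAACA and TGTTCT 3 bases apart), the PPAR element (AGGTCA repeated 1 base apart) or the full cAMP element TGACGTCA. The shares over the 27025 genes of the table were 0.0111%, 0.0407% and 1.77%, at which a set of this size would hold few or none. The FOXO element TGTTTAC occurred in 1 member (2.33%) and in 3.54% of all genes, the E-box CACGTG in 2 members (4.65%) and in 6.86%, and the TATA box TATAAA in 3 members (6.98%), 1700001J03Rik, Ms4a4b and Gpr65, and in 14.3%. The short cAMP element TGACGT, which is contained in the full one and was added after that had been found in none, occurred in 5 members (11.6%), E030018B13Rik, Nr4a3, Aox3, Gdpd1 and Ppargc1a, and in 7.29% of all genes. A match of letters is not a site of binding, and its absence from this window says nothing of the factor.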

How the data were processed

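Bulk RNA of epididymal fat from 3 fasted and 3 fed mice was analysed from the values deposited by the authors. Per the file headers, these are FPKM per gene, given with 2 decimals at most. RSEM and the builds mm10 and GRCm38.p6 are named per the submitters' processing notes. The aligner, the annotation release and the rule that selected the 3162 rows could not be read from any source used here. Depth is unknown, so no counting interval is given, and no source used here says whether strand was used. Symbols and coordinates come from a GRCm38 annotation, in which 3158 of the identifiers matched. Mice were grouped by treatment as labelled, with replicates numbered by accession.

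The members, gene lists and named-gene rule were chosen with earlier results of these data known. All members are named, as are the genes nearest to each limit, except for a result that is not reported here. Values in every library are given for Cytl1, the 12 members with the highest fasted mean, members on a list, those with over 50% of the fasted sum in 1 library, and up to 4 per function group. Function groups and known sources were assigned after the values were seen. Members got no test, since the rule used the contrast. Other genes were tested with limma 3.58.1 in R 4.3.3 (eBayes with trend, two-sided, Benjamini-Hochberg over all 2999 genes averaging 1 FPKM or more in the 6 libraries, threshold 0.05) on log2(FPKM + 1), and this was tested on simulated data. All 55 members lie above that mean by the rule itself. Mice are separate animals per the series' design text. Alternatives were a pseudocount of 0.1, no filter, median-ratio and quantile scaling, no trend, other limits and leaving out each library. Upstream bases are the 250 before the RefSeq start (GRCm38.p6). Those that reach past the annotated gene start were searched but are not printed. Cell type lists of mesothelium, B and plasma cells, mast cells, Schwann cells and glia, and male germ cells had no gene held.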

Additional observations from a re-analysis of the deposited data

How the results depend on the processing

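The number of members depended on the limits: 9 with a fed mean under 0.5 FPKM, 106 under 1.5 FPKM, 13 with a fasted mean of at least 4 FPKM, 121 of at least 1 FPKM, and 10 when every library had to pass, against 55 by the rule. With no prefix left out there were 57, and with median-ratio scaling 70, among them all 55. That scaling could lose no member, since it raises fasted values and lowers fed values. Leaving out 1 library gave 49 to 67, and 10 members were lost without fasted mouse 1 and 8 without fasted mouse 2, among them Nr4a3, Mmrn1, Ackr2 and Dhh. The median log2 difference over the members was 1.88 with a pseudocount of 0.1 FPKM, 1.25 after median-ratio scaling, 0.96 after quantile scaling and 1.06 to 1.28 without 1 library, against 1.13. The pseudocount moved 52 of the 55 single differences by more than their spread, by its own construction, and reversed none. Over all tested genes, 787 were lower with median-ratio scaling against 1482 as deposited, and 1040 to 1300 without 1 library, while the count of higher genes stayed between 1118 and 1321 over all alternatives. Depth is unknown and limits any statement on levels near 0. No paired analysis was possible because the replicate numbers are in accession order and the labels pair no fasted mouse with a fed one.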
